A study of Homo sapiens with 4 samples.

Results

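The genes described here encode the nuclear pore and the soluble machinery that carries proteins and RNA through it. They are 57 genes listed by name and role, with earlier results of these data known, out of 19468 genes with a symbol in the authors' deposited table. They comprise 28 nucleoporins, 4 genes of the Ran cycle, 16 importins, 6 exportins and 3 mRNA export factors. The study transfected MDA-LM2 cells, a lung-metastatic derivative of MDA-MB-231, a breast cancer line of human origin, with small interfering RNAs (siRNAs) against TARBP2 or with a control siRNA. The knockdown group held 2 arrays, 1 for each of 2 different TARBP2 siRNAs, and the control group held 2 arrays of cells given the control siRNA (the design text calls the controls mock-transfected). Total RNA was taken 48 hours after transfection and hybridised to Illumina BeadChips. All 4 samples came from this line, and no label says that the control arrays were separate cultures.

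TARBP2 is a double-stranded RNA-binding protein best known as a partner of Dicer. Nuclear pores are built of layers of nucleoporins: outer and inner scaffold rings, a membrane anchor, a central channel lined with phenylalanine-glycine (FG) repeats, cytoplasmic filaments and a nuclear basket. Importins bind cargo in the cytoplasm and release it when the GTPase RAN binds them in the nucleus, whereas exportins load cargo together with RAN and release it after GTP hydrolysis. Most messenger RNA leaves by another route, bound to the NXF1 and NXT1 heterodimer, and the basket protein TPR acts with nuclear RNA surveillance, holding back transcripts that are not fully processed.

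The values were log fold changes between the groups, 1 for each RefSeq accession (record), and by the column's header a positive value means a higher signal with TARBP2 siRNA than with control siRNA. The authors' deposited table does not state the log base, and values are read here as log2. Its values come with no error and no number of replicates, and the array probes used here are not paired with genes, so no member was tested, and neither its level on single arrays nor that of the markers of the cell line is given. The values could not be traced to the 4 deposited arrays. Of 1757 records past 0.5 in either direction by the authors' deposited table, between 2 and 33 (at most 1.88%) equalled a probe's difference to within 1e-06 in any of 64 contrasts of the raw or normalized intensities, and between 0 and 32 did so with the sign turned. A contrast of the arrays looked up against its own values matched in 3410 of 3410, an outcome fixed in advance. It checks only that the lookup runs. Means over several probes and other normalizations were not tried, so the arrays behind each value and the weight of each siRNA are not known. The direction is taken from the header, with the value of TARBP2 as its only check. RNA of whole cultures was measured, so a change in all cells and a larger one in some of them cannot be told apart. A value counted as above or below when it lay past 0.2, the bound of the class that the authors' deposited table calls up-regulated, or its mirror at -0.2. TARBP2, the target of the siRNAs, stood low, at -0.78 by the authors' deposited table, with records at -0.98 and -0.58 and 121 named genes lower. Across arrays, 19411 to 21639 of 47321 probes were detected. No probe passed limma's test of the groups (0 of 21075 tested, or 0%, smallest adjusted p = 0.805), and 815 had an unadjusted p under 0.05. With the array of TARBP2 siRNA 1 left out 4479 probes passed, and with that of siRNA 2 left out 12035, with the spread of the single knockdown array taken to equal that of the controls. The knockdown arrays differ in their siRNA, and the labels do not say whether the control arrays came from separate cultures. The p-values from all 4 arrays thus measure only the spread between these samples. That spread may be technical for the controls and includes any difference between the siRNAs. With 1 knockdown array left out, the spread is that of the 2 controls alone. The arrays of the TARBP2 siRNAs differed from each other by an SD of 0.852 in log2 signal over probes, more than the SD of 0.25 between the controls. The array of siRNA 1 stood apart: it differed from the controls by SDs of 0.805 and 0.799, against 0.384 and 0.395 for the array of siRNA 2, and its raw 75th percentile was 327.1, against 228.8 to 252 on the others.

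More of the nuclear transport genes stood lower than higher. Of the 57 members, 18 lay below -0.2 by the authors' deposited table, or 31.6%, against 12.1% of all named genes. Above 0.2 lay 11 members, or 19.3%, against 13.1% of all named genes by the authors' deposited table. The remaining 28 lay between the bounds, and the median of the members was -0.03 by the authors' deposited table, beside 0.00 for all named genes. The lowest members were NUP54, an FG nucleoporin of the central channel, at -1.05 and XPO1, the main exportin for proteins with a nuclear export signal, at -1.02 by the authors' deposited table. Only 23 of all named genes had a lower value than NUP54 by the authors' deposited table, and 30 had a lower value than XPO1. Read as log2, these values are ratios of 0.482 and 0.494 of knockdown to control by the authors' deposited table, and read as natural logarithms 0.349 and 0.362. The highest members were NUP210, a membrane nucleoporin with a large lumenal part, at 0.82 and NUP93, the hub of the inner ring, at 0.57 by the authors' deposited table. For NUP210, 102 of all named genes stood higher by the authors' deposited table, and for NUP93 418 did.

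**Figure D1:**
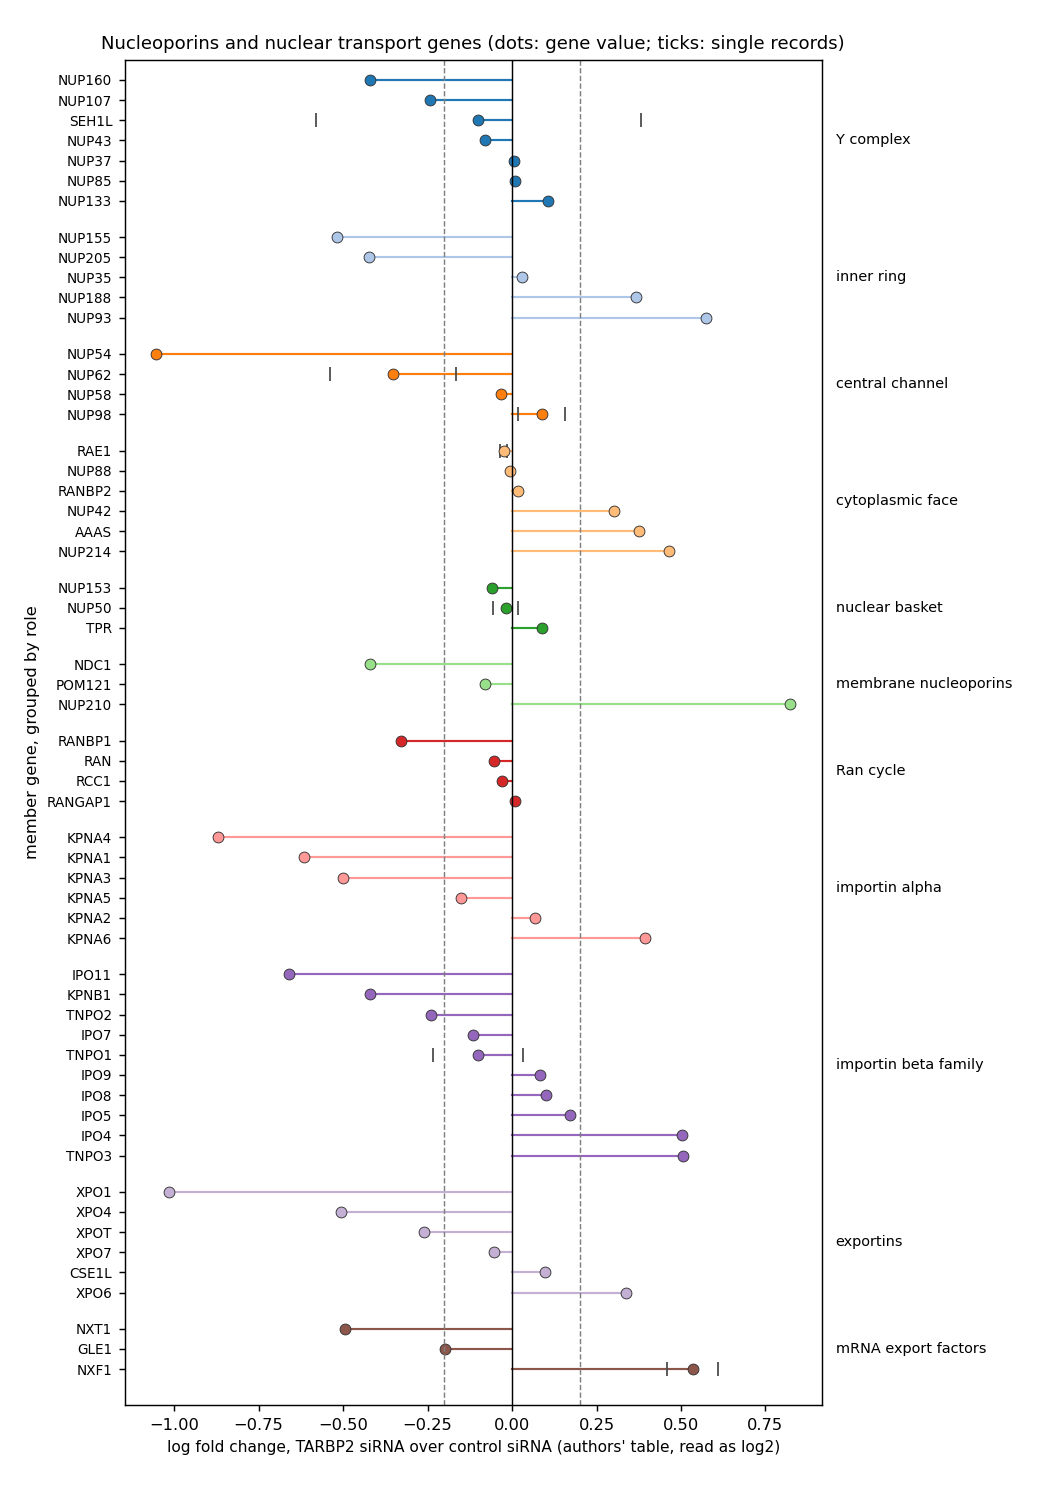
Each dot is the value of 1 of the 57 members (x axis: log fold change, knockdown over control, taken from the authors' deposited table and read as log2; y axis: genes grouped by role). Short vertical ticks are the single records of the 7 members with 2 records, and dashed lines mark -0.2 and 0.2. NUP54 at -1.05, XPO1 at -1.02 and KPNA4 at -0.87 lie farthest to the left, and NUP210 is the highest value at 0.82.

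The bases before the transcription start of these 4 genes are printed because they bound the range of the members, and so that the share of each motif among the members can be read against actual promoters. They are the 250 bases upstream of the RefSeq start on GRCh38.p14, the first window listed for a gene (XPO1 has 2 and NUP93 has 3), 5′ to 3′ on the strand of the gene. Capitals mark matches on either strand to the motifs searched, with overlapping matches run together: ETS (CCGGAAG), SP (GGGCGG), NF-Y (CCAAT), NRF1 (GCATGCG), E2F (TTCCCGC or TTGGCGC), CRE (TGACGTC), YY1 (AAGATGG) and TBP (TATAAA). The window of NUP54 is chr4:76148398-76148647 (minus strand), that of XPO1 chr2:61538357-61538606 (minus strand), that of NUP210 chr3:13420323-13420572 (minus strand) and that of NUP93 chr16:56729879-56730128 (plus strand).
NUP54: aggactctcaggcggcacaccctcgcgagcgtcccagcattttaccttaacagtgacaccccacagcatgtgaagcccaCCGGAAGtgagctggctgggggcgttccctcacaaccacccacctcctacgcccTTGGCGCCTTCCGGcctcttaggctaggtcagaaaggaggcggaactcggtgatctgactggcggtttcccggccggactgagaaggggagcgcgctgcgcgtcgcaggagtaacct
XPO1: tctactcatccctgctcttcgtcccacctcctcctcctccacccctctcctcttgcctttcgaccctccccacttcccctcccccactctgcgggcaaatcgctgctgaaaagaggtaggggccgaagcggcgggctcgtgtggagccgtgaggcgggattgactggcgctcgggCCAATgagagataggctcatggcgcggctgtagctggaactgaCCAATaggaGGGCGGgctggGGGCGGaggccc
NUP210: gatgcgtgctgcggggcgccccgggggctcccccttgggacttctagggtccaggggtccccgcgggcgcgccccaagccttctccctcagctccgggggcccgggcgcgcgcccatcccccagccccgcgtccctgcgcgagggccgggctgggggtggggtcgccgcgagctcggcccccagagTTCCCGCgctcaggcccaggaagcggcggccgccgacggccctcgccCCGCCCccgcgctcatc
NUP93: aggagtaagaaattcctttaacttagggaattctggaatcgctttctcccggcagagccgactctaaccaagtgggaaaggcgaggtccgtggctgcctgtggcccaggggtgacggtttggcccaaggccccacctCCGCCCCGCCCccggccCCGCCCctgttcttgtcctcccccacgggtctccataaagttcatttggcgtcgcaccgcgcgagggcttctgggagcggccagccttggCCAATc

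All 4 windows were rich in G and C, from 62.8% in NUP93 to 80.8% in NUP210. NUP54 had ETS matches starting at -171 and -110 from the transcription start and an E2F match at -117 that runs into the nearer ETS match. XPO1 had a pair of NF-Y matches at -75 and -32 and a pair of SP matches at -23 and -12. NUP93 had 3 SP matches between -113 and -96 and an NF-Y match at -6, and NUP210 an E2F match at -64 and an SP match at -17. None of the 4 windows held a TBP match. A match describes these letters only and says nothing of binding.

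Of the 57 members, 50 had a RefSeq window. The ETS motif was found in 16 of them, or 32%, against 11.8% of the windows of 15843 protein-coding genes and 23.5% of those of 34 proteasome subunit genes. The NRF1 motif was in 6 member windows (12%), against 4.51% of protein-coding genes, and the CRE in 5 (10%), against 4.18%. E2F matches were in 16% and 10.6%, NF-Y matches in 42% and 34.5%, and YY1 matches in 4% and 3.35%. SP matches were in 52% of member windows and 56% of all, and TBP matches in 6% and 9.23%. In the proteasome windows, NRF1 and CRE matches were each in 2.94%, below the members. E2F was in 32.4% of them, NF-Y in 47.1%, YY1 in 5.88%, SP in 58.8% and TBP in 14.7%, all above the members. The ETS motif was in 3 of 11 windows of members above 0.2, 5 of 15 below -0.2 and 8 of 24 between. NRF1 matches were in 4 of the 15 windows of members below -0.2 (NUP62, NUP107, TNPO2 and IPO11), in 2 of the 24 between the bounds and in none of the 11 above, and CRE matches were in 3 of those 11 (NUP42, NUP214 and NXF1) and in none of the 15. Above 0.2 and below -0.2, E2F matches were in 1 of 11 and 4 of 15 windows, YY1 in 2 and 0 and TBP in 2 and 1. SP matches were in 6 and 9 of these windows, and NF-Y matches in 5 and 6. These are counts of a few windows and carry no test. The median content of G and C was 62.6% in the members and 62.4% in all protein-coding genes, with 22 and 17 CpG dinucleotides.

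**Figure D2:**
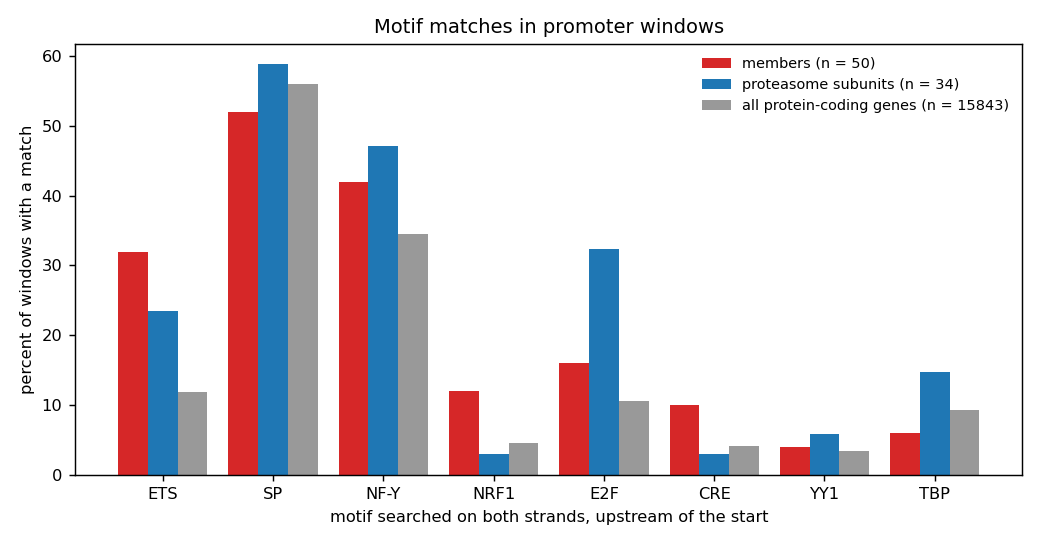
Bars give the percent of upstream windows with at least 1 match to each motif (x axis) for the 50 members with a window, 34 proteasome subunit genes and 15843 protein-coding genes. The ETS bar of the members stands at 32% and that of all protein-coding genes at 11.8%, while the SP bars lie between 52% and 58.8%.

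Of the scaffold rings, the inner held gene values past both bounds and the outer only below -0.2. The outer ring, or Y complex, coats the pore on both faces. Past either bound lay 28.6% of its 7 members, near the 25.2% of all named genes, by the authors' deposited table. None lay above 0.2 and 2 lay below -0.2, against 13.1% and 12.1% of all named genes by the authors' deposited table. Those below were NUP160, which sits at the junction of the Y, at -0.42 and NUP107, a stalk component, at -0.24 by the authors' deposited table. The other stem and arm components NUP133, NUP85, NUP37 and NUP43 lay between -0.08 and 0.11 by the authors' deposited table. SEH1L, a small propeller protein shared with a complex that regulates mTORC1, had a mean of -0.10 over records at 0.38 and -0.58 by the authors' deposited table, so the sign of its value depends on the record.

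In the inner ring, 4 of 5 genes lay past the bound, in opposite directions, against 25.2% of all named genes by the authors' deposited table. NUP93 at 0.57 and NUP188 at 0.37 stood above it by the authors' deposited table. NUP155, which reaches to the membrane, stood at -0.52 and NUP205 at -0.42 by the authors' deposited table, while NUP35, a dimeric linker, stood at 0.03. NUP188 and NUP205 are related large scaffold proteins that each bind NUP93, and they lay 0.79 apart by the authors' deposited table. The ring as a whole had a median of 0.03 by the authors' deposited table, which does not describe any of the 4 genes past the bound.

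The central channel had the lowest nucleoporin. NUP54, NUP58 and NUP62 form 1 complex whose FG repeats make up the permeability barrier. They stood at -1.05, -0.03 and -0.35 by the authors' deposited table, so NUP58 lay 1.02 above NUP54. The records of NUP62 stood at -0.54 and -0.17 by the authors' deposited table, both below 0 but only the first past the bound. NUP98, an FG nucleoporin whose transcript also encodes the scaffold protein NUP96, stood at 0.09 with records at 0.02 and 0.16 by the authors' deposited table.

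The cytoplasmic face held values above the bound and values near 0. The basket held values between the bounds, as did most named genes. Of 6 genes of the cytoplasmic face, 3 lay above 0.2 and none below -0.2 by the authors' deposited table, against 13.1% and 12.1% of all named genes. NUP214, an FG nucleoporin that docks the mRNA export helicase, stood at 0.46, AAAS, the gene mutated in triple A syndrome, at 0.38 and NUP42, a partner of GLE1, at 0.30 by the authors' deposited table. NUP88, which binds NUP214, stood at -0.01, and RAE1, an mRNA export factor that binds NUP98, at -0.02 by the authors' deposited table. RANBP2, the giant filament protein and SUMO ligase, stood at 0.02 by the authors' deposited table, and as it has near-identical gene copies its probe may not separate them. In the basket, TPR stood at 0.09, NUP153 at -0.06 and NUP50, which helps to release importin cargo, at -0.02 by the authors' deposited table. For TPR, 4732 named genes had a higher value by the authors' deposited table. Of the membrane nucleoporins, NUP210 stood at 0.82 and NDC1 at -0.42 by the authors' deposited table, 1.24 apart. POM121, whose sequence is nearly shared by its copy POM121C, stood at -0.08 by the authors' deposited table.

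The Ran cycle was close to 0 except for RANBP1. RAN stood at -0.05, its nuclear exchange factor RCC1 at -0.03 and its cytoplasmic GTPase activator RANGAP1 at 0.01 by the authors' deposited table. RANBP1, which helps to strip RAN from transport receptors so that GTP can be hydrolysed, stood at -0.33 by the authors' deposited table, with 1356 named genes lower. RAN has processed pseudogenes, so its probe may be shared with them.

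Importin alpha genes had a lower median than the importin beta family, -0.33 against -0.01 by the authors' deposited table. These adaptors recognise the classical nuclear localisation signal and bind importin beta. Of 6 genes, 3 lay below -0.2 and 1 above 0.2, against 12.1% and 13.1% of all named genes by the authors' deposited table. KPNA4 stood at -0.87 and KPNA3 at -0.50 by the authors' deposited table, and these genes form 1 subfamily. In the subfamily of KPNA1, KPNA5 and KPNA6 the values were -0.62, -0.15 and 0.39 by the authors' deposited table, so KPNA6 lay 1.01 above KPNA1. KPNA2, the importin alpha that is often abundant in proliferating cells, stood at 0.07 by the authors' deposited table. Each importin alpha gene had a single record.

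The members of the importin beta family bind cargo or an adaptor and cross the channel themselves. Of its 10 genes, 3 lay below -0.2 and 2 above 0.2, against 12.1% and 13.1% of all named genes by the authors' deposited table. KPNB1, importin beta itself, stood at -0.42 by the authors' deposited table, with 896 named genes lower. IPO11, which imports a set of ubiquitin-conjugating enzymes, stood at -0.66 and TNPO2 at -0.24 by the authors' deposited table. TNPO2 is a close relative of TNPO1, the receptor of many RNA-binding proteins, whose records stood at 0.03 and -0.23 with a mean of -0.10 by the authors' deposited table. TNPO3, which imports SR splicing factors, and IPO4, which imports histones, both stood above the bound at 0.51 and 0.50 by the authors' deposited table. IPO5, IPO7, IPO8 and IPO9, which carry ribosomal proteins, histones and other cargoes, lay between -0.12 and 0.17 by the authors' deposited table.

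Of the 6 exportins, 3 lay below -0.2 and 1 above 0.2, against 12.1% and 13.1% of all named genes by the authors' deposited table. The median of the exportins was -0.16 by the authors' deposited table. XPO1 at -1.02 was followed by XPO4 at -0.51, an exportin of the translation factor eIF5A, and by XPOT at -0.26, the exportin of transfer RNA, by the authors' deposited table. XPO6, which exports actin with profilin, stood at 0.34 by the authors' deposited table, 1.35 above XPO1. XPO7 stood at -0.05 and CSE1L, which returns importin alpha to the cytoplasm, at 0.10 by the authors' deposited table.

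The partners of the main mRNA export receptor had opposite signs. NXF1 stood at 0.53, with records at 0.46 and 0.61, and NXT1, the small subunit of the heterodimer, at -0.49 by the authors' deposited table, 1.03 apart. Both records of NXF1 lay above 0.2 by the authors' deposited table, and NXT1 had a single record. GLE1, which activates the export helicase at the cytoplasmic face, stood at -0.1975 by the authors' deposited table, just inside the bound.

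Other genes of these routes, listed by role and not members, also went both ways. Of 12 measured pore and transport genes outside the members, 4 lay above 0.2 and 3 below -0.2 by the authors' deposited table. Beside this count and those of the lists that follow, 13.1% of all named genes lay above 0.2 and 12.1% below -0.2. SNUPN, which brings the caps of small nuclear RNAs to importin beta, was the highest at 0.91, and IPO13 and SEC13, a Y complex subunit that is not among the 7 members above, followed at 0.255 and 0.23 by the authors' deposited table. TMEM33 at -0.82, AHCTF1, which seeds pores on chromatin, at -0.57 and NUTF2, the importer of RAN, at -0.22 were the lowest by the authors' deposited table. Of 23 genes of TREX and other mRNA export complexes, 4 lay above 0.2 and 8 below -0.2 by the authors' deposited table. THOC6, THOC3 and THOC2, subunits of 1 complex, stood at 0.61, 0.46 and 0.37, while THOC1 of that complex stood at -0.49 by the authors' deposited table. NXT2, the paralog of NXT1, stood at -0.62, the lowest of that list, and CHTOP, an export adaptor, at -0.42 by the authors' deposited table. Of 11 genes of nuclear RNA surveillance, in which TPR also acts, 2 lay above 0.2 and 4 below -0.2 by the authors' deposited table. The lowest were EXOSC10, the nuclear exosome nuclease, at -0.78, the helicase MTREX at -0.63 and ZCCHC7 at -0.52 by the authors' deposited table. The highest was ZCCHC8 at 0.37 by the authors' deposited table.

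**Figure D3:**
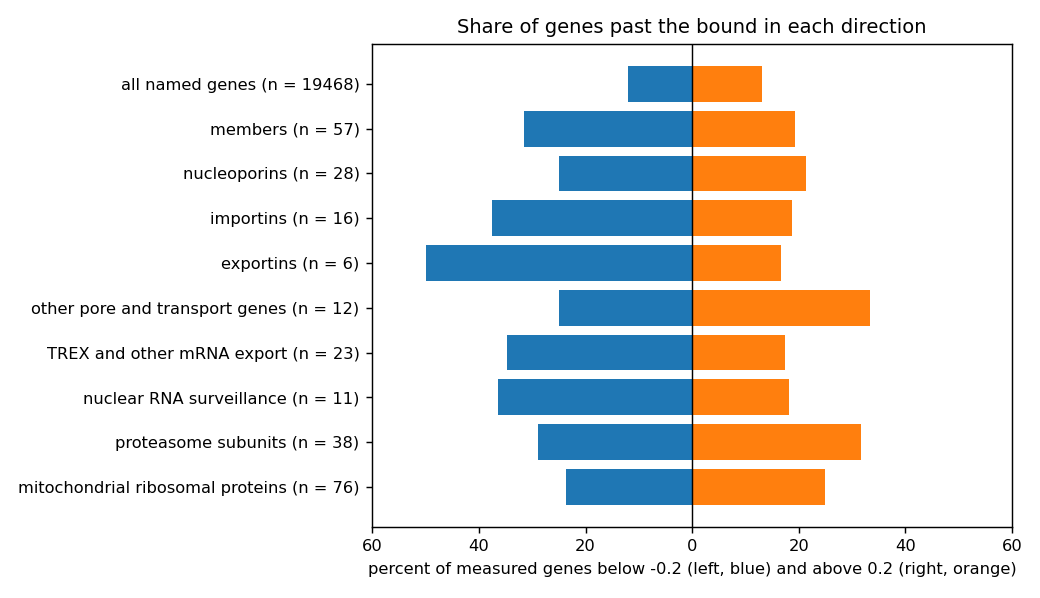
Bars give the percent of measured genes below -0.2 (left) and above 0.2 (right) by the authors' deposited table for all named genes, the members and their larger classes, the lists of other transport, mRNA export and surveillance genes, and 2 comparison lists. Members reach 31.6% on the left and 19.3% on the right, against 12.1% and 13.1% of all named genes. The proteasome subunit bars reach 28.9% and 31.6%, and those of mitochondrial ribosomal proteins 23.7% and 25%.

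Lists of other widely expressed genes also lay past the bounds more often than all named genes. Of 38 proteasome subunit genes 60.5% and of 76 mitochondrial ribosomal protein genes 48.7% lay past 0.2 in either direction by the authors' deposited table, beside 50.9% of the members and 25.2% of all named genes. In the authors' normalized array intensities, the mean of the knockdown arrays differed from the mean of the controls by more than 0.2 in log2 for 52.4% of detected probes and for 17.7% of the others. The control arrays alone differed from each other by more than 0.2 for 17.7% of detected probes, and the 2 knockdown arrays from each other for 70.1%, in each case a single array against a single array. The share of members past either bound thus lay between those of the proteasome and mitochondrial ribosomal lists. The array shares are given side by side only, since the values by the authors' deposited table could not be traced to these arrays. Below -0.2 lay 18 of the 29 members past a bound (62.1%), against 47.8% for the proteasome, 48.6% for mitochondrial ribosomal proteins and 48.2% for all named genes by the authors' deposited table. The same share was 66.7% for TREX and other mRNA export genes, 66.7% for nuclear RNA surveillance genes and 42.9% for the other pore and transport genes by the authors' deposited table. Genes carry no replicate error here, and the difference in direction was not tested.

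**Figure D4:**
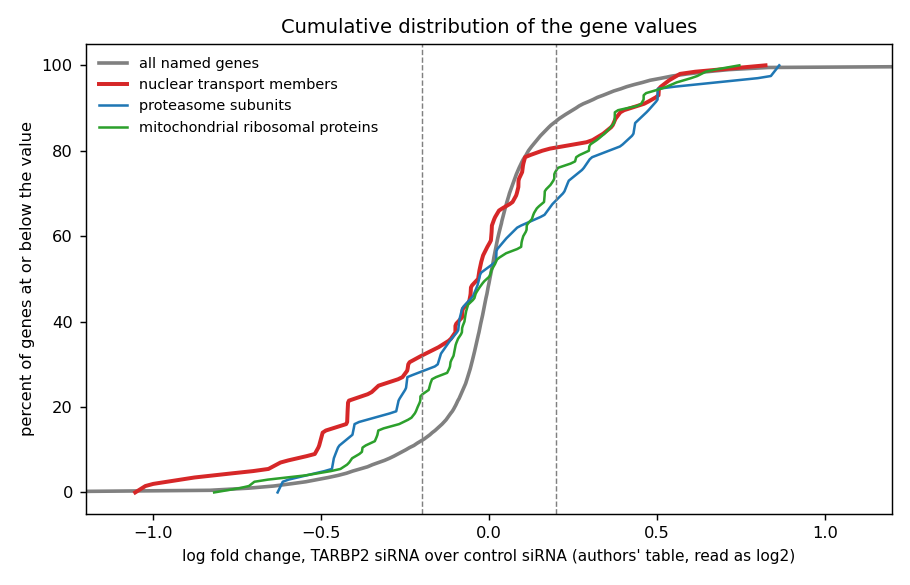
Lines give the percent of genes (y axis) at or below each log fold change (x axis, taken from the authors' deposited table and read as log2), with dashed lines at -0.2 and 0.2. At -0.2 the members' line stands highest of the 4, with 31.6% of members below it, and the members' quartiles are -0.33 and 0.10.

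Records of 1 gene give the only measure of error within the authors' deposited table. Of the members, 50 had 1 record and 7 had 2. Over all 2131 genes with 2 records, the gap between the records had a median of 0.118 by the authors' deposited table, and 31.6% of these genes had a gap over 0.2. Where the first record lay past the bound, which it did for 509 genes, the second had the same sign in 69.4% and lay past the same bound in 36.1% by the authors' deposited table. Records can differ by isoform or by probe, which the authors' deposited table does not separate. In the 7 members with 2 records, the gap had a median of 0.149 and was over 0.2 in 42.9% by the authors' deposited table. The pooled SD between the records of these members was 0.291, larger than the bound of 0.2. NXF1 had 2 records past the same bound, and NUP62 had 2 of the same sign with 1 past it. TNPO1 had records on both sides of 0 with 1 past the bound. SEH1L had 2 past opposite bounds, 0.96 apart by the authors' deposited table. The values of members with a single record, XPO1, NUP54, NUP210 and KPNA4 among them, have no such check.

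**Figure D5:**
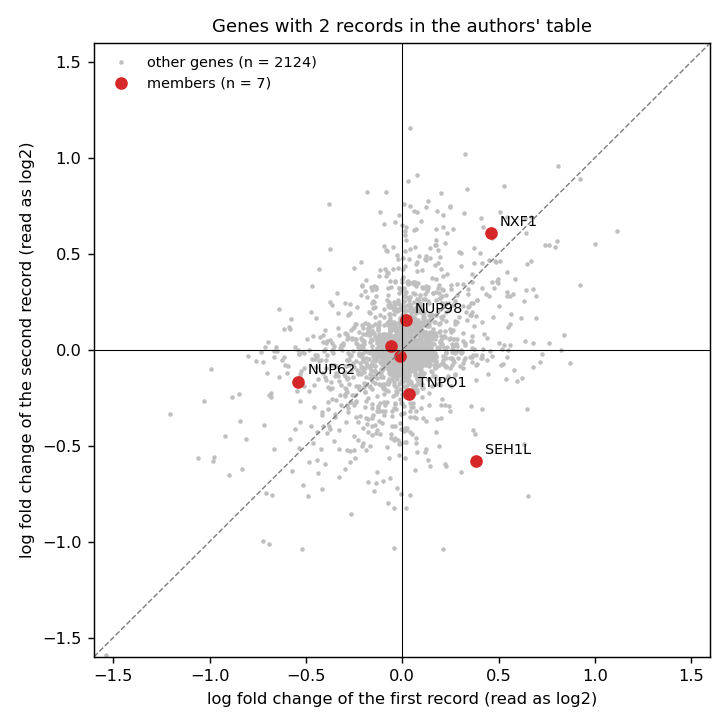
Each point is a gene with 2 records in the authors' deposited table, with the log fold change of the first record on the x axis and of the second on the y axis (read as log2, first and second by accession), members in red and 2124 other genes in grey. NXF1 lies near the dashed line of equal values, whereas SEH1L lies at 0.38 and -0.58.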

How the data were processed

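Human MDA-LM2 cells were profiled on 4 Illumina arrays, 2 with TARBP2 siRNA and 2 with control siRNA. Raw probe intensity values and detection scores were deposited without normalization, per the file headers, and 1 minus the score served as the detection p-value. The authors' normalized intensities share their quantiles across arrays. lumi is named per the submitters' processing notes, without settings. The deposited log2 values are the authors' log fold changes per accession, their base assumed, with a class that the authors set to 1 above 0.2. Their derivation from the arrays is not given in the sources used here, and a lookup of the deposited values among 64 contrasts of the arrays matched about as many with the sign turned as without, so they were not traced to the arrays.

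Accessions were matched without versions to RefSeq (GRCh38.p14), which named 22411 of 39745 (56.4%). All 57 members were found, and the mean over a gene's accessions was its value. Probes were normalized with neqc (limma 3.58.1, R 4.3.3, offset 16), kept when detected at p under 0.05 on at least 2 arrays, and compared with limma with trend, two-sided, with Benjamini-Hochberg adjustment. No table used here pairs probes with genes, so the planned test of member probes could not be run. The fit was tried on simulated arrays that were all given the spread of the controls. The real knockdown arrays differed more from each other, so the simulation does not show what the fit can find here. An exact permutation test of 2 arrays against 2 cannot go under p = 0.333, and the number of arrays limits the precision.

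Named were members outside -0.2 to 0.2, those with records on both sides of 0 and at least 1 outside that range, TPR, RAN, XPO1, KPNB1 and NXF1, at most the 3 highest and 3 lowest of each other list, and TARBP2; the remaining members complete each class. The members, lists and this rule were chosen with earlier results of these data known. The comparison lists of proteasome and mitochondrial ribosomal genes and the motifs were added after the values were seen.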

Additional observations from a re-analysis of the deposited data

How the results depend on the processing

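Members have at most 2 records, so the median over records equals the mean and could not move a value. With the record farthest from 0 for each gene, the median of the members went from -0.03 to -0.05 and that of the importins from -0.11 to -0.13 by the authors' deposited table. At a bound of 0.5 in place of 0.2, 5 members lay above and 7 below by the authors' deposited table, beside 3.17% and 3.18% of all named genes. With the record farthest from 0 for each gene, 20 members lay below -0.2 and 11 above, beside 13.2% and 14.4% of all named genes. Reading the values as natural logarithms gave 20 and 12, beside 16.1% and 17.9% of all named genes. With 1 array left out, between 0 and 12035 probes passed limma's test: 4479 without TARBP2 siRNA 1, 12035 without TARBP2 siRNA 2 and 0 without either control, the lone knockdown array being assumed to vary like the controls. The limma fit with the replicate block called 0 probes (smallest adjusted p = 0.339, and 1019 at an unadjusted p under 0.05). The deviations of arrays with the same number had a correlation of -0.042 over probes. With 2 arrays in each group, this cannot decide whether arrays with the same number share more than the number. Without the filter on dim probes, with the authors' normalized values, with median scaling, without trend and with robust variances limma also called 0, with 755 to 1740 at an unadjusted p under 0.05. The alternatives for member probes were not run, since no table used here names them. Signal over background limits the arrays: 41% to 45.7% of probes were detected on each.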
